A study of Mus musculus with 20 samples.

Results

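The first hour after the start of the erythropoietin time courses was examined in 4 of the 20 arrays of the study: the 1 h and the 0 h array of the series given erythropoietin (Epo, 0.5 U/ml), and the 1 h and the 0 h array of the series left without it. The members were taken from the sample titles, and each 1 h array was set against the 0 h array of its own series, which gives 2 pairs. All arrays held RNA of CFU-E cells (colony-forming units erythroid), the progenitors whose survival needs Epo, from livers of BALB/c embryos at embryonic day 13.5, from which red cells were lysed and cells bearing TER119 or markers of other blood lineages were removed with magnetic beads. The labels give the cells' history before 0 h differently: the series text has fresh cells starved for 1 h in a serum-free medium, and the treatment protocol has cells kept for 12 to 14 h with serum and 0.5 U/ml Epo. They do not state how many livers were pooled or whether the 2 series came from the same preparation, so Epo and series cannot be told apart. Each treatment and time has 1 array, and the spread behind the tests is a spread between arrays, which may be technical.

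Epo binds its receptor on CFU-E cells and activates the kinase JAK2, which phosphorylates the transcription factor STAT5. STAT5 then switches on survival genes and its own inhibitors, among them Cish and Socs3, and a second branch through ERK kinases induces immediate early genes, which need no new protein to be transcribed. Immediate early genes, heat shock genes and NF-kB targets are also known to respond to cell handling, medium change and growth factor loss. A change that both series share cannot be ascribed to the Epo given to 1 of them, whereas a change that differs between the series is a candidate response to Epo. The expression values are log2 levels, so a change of 1 is a 2-fold change, and each of 18193 genes is represented by its brightest probe set. Where 2 levels of a series are given without a time, the 1 h level is followed by the 0 h level.

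In the Epo series 62 genes (0.341%) were at least 2-fold higher at 1 h than at 0 h and 173 (0.951%) at least 2-fold lower. Without Epo the counts were 68 (0.374%) and 49 (0.269%). Across the 18193 genes the change with Epo and the change without it had a Pearson correlation of 0.397 and a Spearman correlation of 0.282; genes are not independent replicates, and the 2 changes share no array. Sorted by size, 28 genes (0.154%) were at least 2-fold higher in both series and 20 (0.11%) at least 2-fold lower in both. A further 15 genes (0.0824%) were at least 2-fold higher in the Epo series while their change without Epo was under 2-fold and at least 1 apart on the log2 scale, and 26 (0.143%) met the mirror condition for the series without Epo. Lower in the Epo series by the same condition were 46 genes (0.253%), and lower in the series without Epo 8 (0.044%). No gene (0%) was at least 2-fold higher in one series and at least 2-fold lower in the other. The groups are a description by size and overlap with what the tests below measure. Counts of genes that passed within a group therefore follow in part from how it was chosen.

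**Figure D1:**
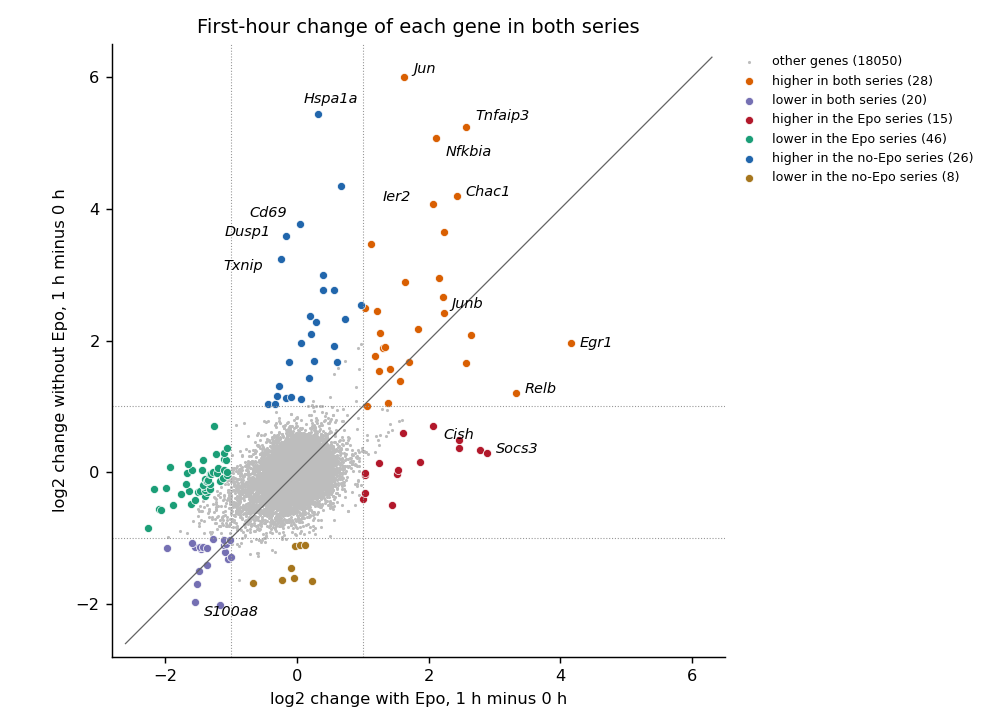
Each point is 1 of 18193 genes, placed by its log2 change with Epo (1 h minus 0 h, horizontal) and without Epo (vertical), 1 array per time; dotted lines mark a 2-fold change and the solid line equal changes. Of the 28 genes higher in both series, 20 lie above the line, with a larger change without Epo, while Egr1 and Relb lie below it and Cish and Socs3 stand apart with a change in the Epo series.

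The tests took their spread from hours 2 to 7 of both series around a line in time, and the lone 0 h and 1 h arrays were assumed to vary like those. Where a gene's course bends over those hours, the bend counts as spread and enlarges its standard error. At an adjusted p under 0.05, 54 genes (0.297%) were higher and 123 (0.676%) lower at 1 h with Epo, and 58 (0.319%) were higher and 20 (0.11%) lower at 1 h without Epo. The difference between the 2 changes passed for 18 genes: 2 (0.011%) changed more towards higher levels with Epo and 16 (0.0879%) towards lower levels. Without the Epo 2 h array in the spread, the first of these counts was 6. At an unadjusted p under 0.05 the difference was past the threshold for 635 of the 18193 genes. That is a smaller share than the 0.05 expected if no gene differed. The median standard error was 0.231 for a change within a series and 0.326 for the difference of changes. The 4 arrays alone, with series as a block, called 164 genes (0.901%) higher and 606 (3.33%) lower at 1 h; with 1 residual degree of freedom those counts fell to 30 and 64 without a trend in the variance, and to 0 and 0 without the block.

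Among the genes higher in the Epo series, the feedback inhibitors Cish and Socs3 had the largest differences from the series without Epo. Cish, a STAT5 target whose protein competes with STAT5 for the Epo receptor, stood at 9.14 at 1 h and 6.37 at 0 h with Epo, against 6.60 at 1 h and 6.26 at 0 h without. It rose 6.84-fold with Epo (log2 change 2.77 ± 0.29 SE, adjusted p = 2.1e-05), and its change exceeded that without Epo by 2.43 ± 0.40 (adjusted p = 0.011). Its 2 arrays at 0 h differed by 0.11 and those at 1 h by 2.54. Socs3, which blocks JAK2 at the receptor, stood at 7.25 at 1 h and 4.36 at 0 h with Epo, against 4.18 at 1 h and 3.89 at 0 h without. It rose 7.42-fold with Epo (log2 change 2.89 ± 0.24 SE, adjusted p = 3.8e-06), and the difference of changes was 2.61 ± 0.34 (adjusted p = 0.00078). The 1 h level with Epo was above the other 3 arrays for both genes. The brightest Socs3 probe set may cross-hybridise; its other probe sets changed by 2.84 and 1.13 with Epo and by 0.47 and 0.09 without, and with the probe set not marked as cross-hybridising the difference of 1.04 no longer passed. Pim1, which encodes a kinase that promotes survival and is induced by STAT5, stood at 8.41 and 7.46 with Epo and at 7.51 and 7.86 without, at 1 h and 0 h. It rose with Epo by 0.95 ± 0.22 (adjusted p = 0.038), its difference of changes was 1.29 (adjusted p = 0.2), and the call ended when the probe sets were averaged or the dimmer genes left out.

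Cish and Socs3 are shown with their promoter windows because they are the genes whose difference between the series passed towards higher levels with Epo. The windows run from 250 bases before to 50 bases after the annotated start, from RefSeq on build GRCm38.p6, 5′ to 3′ on the gene's strand: Cish is at chr9:107296409-107296708 on the plus strand and Socs3 at chr11:117969317-117969616 on the minus strand. Capitals mark the palindrome TTCNNNGAA, the sequence STAT5 dimers are known to bind, searched on both strands.
Cish: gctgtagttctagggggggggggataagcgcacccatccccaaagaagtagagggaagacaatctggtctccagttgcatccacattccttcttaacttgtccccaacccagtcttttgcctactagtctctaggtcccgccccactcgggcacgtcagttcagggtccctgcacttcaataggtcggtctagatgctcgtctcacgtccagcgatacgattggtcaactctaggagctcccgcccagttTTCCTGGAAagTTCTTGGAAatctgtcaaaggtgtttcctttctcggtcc
Socs3: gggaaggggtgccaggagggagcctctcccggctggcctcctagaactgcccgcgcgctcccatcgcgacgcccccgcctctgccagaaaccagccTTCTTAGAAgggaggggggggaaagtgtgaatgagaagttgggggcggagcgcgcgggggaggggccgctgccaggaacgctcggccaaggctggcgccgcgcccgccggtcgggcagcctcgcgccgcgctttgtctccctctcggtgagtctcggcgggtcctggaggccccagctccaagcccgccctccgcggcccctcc
The Cish window held 2 such palindromes, at and just after the start, which share bases with a match to the heat shock element GAANNTTC, and the Socs3 window held 1. Of the 13 genes higher in the Epo series that have a window, these 2 (15.4%) held the palindrome, against 8.6% of the 14368 tested genes with a window and 3 of 22 (13.6%) of the genes higher without Epo. A match describes the letters and is not a measured binding site.

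The other genes of the group higher in the Epo series had mixed functions. Dusp16, a phosphatase that acts on MAP kinases, stood at 8.31 at 1 h and 5.85 at 0 h with Epo, against 6.58 and 6.22 without, and rose with Epo by 2.46 ± 0.37 (adjusted p = 0.0016). Ccn1, which encodes a secreted matrix protein, rose with Epo by 1.87 ± 0.30 (adjusted p = 0.0024), with a change of 0.15 without Epo. Tnfrsf13c, a receptor of the TNF family, rose by 2.06, Trpc2 by 1.51 and Gadd45b, a growth arrest gene, by 1.61 (adjusted p = 0.0033, 0.0022 and 0.00075). Rrad, a small GTPase gene, rose by 2.47 ± 0.56 (adjusted p = 0.039), a call that ended under quantile normalization, among the brighter genes and when probe sets were averaged. Of the 15 genes, 11 passed for the change with Epo, 0 for the change without, and 2 for the difference. At 1 h, 10 of the 15 were at least 2-fold above the no-Epo array itself, and at 0 h none was that far above or below it. All 16 other probe sets of the 15 genes were higher at 1 h with Epo. Those of 4 genes named here changed less than the brightest. With Epo they changed by 0.64 for Dusp16, 0.78 for Trpc2, 0.19 and 1.10 for Gadd45b, and 0.085 to 1.56 for Ccn1.

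Several of these 15 genes came up later without Epo. At 2 h, 12 of the 15 were at least 2-fold above their 0 h level with Epo and 9 of the 15 without Epo, whereas 0.49% of all genes with Epo and 1.4% without were that far above theirs. Both counts reuse the 0 h arrays by which the 15 were chosen. Dusp16 reached 9.04 at 2 h and 9.53 at 3 h without Epo, above its highest level with Epo of 8.31 at 1 h. Hivep1, a zinc finger gene, stood at 5.62 at 1 h and 4.66 at 2 h with Epo, and at 4.08 at 1 h and 7.37 at 2 h without. Cish and Socs3 did not follow this course: without Epo Cish ranged from 5.45 to 6.81 and Socs3 from 3.50 to 4.18 over hours 0 to 7, and every level with Epo at 1 to 7 h lay above that range. Nab2, a corepressor that binds EGR proteins, was at 5.13 at 1 h and 7.82 at 2 h with Epo, against 3.91 and 4.07 without.

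**Figure D2:**
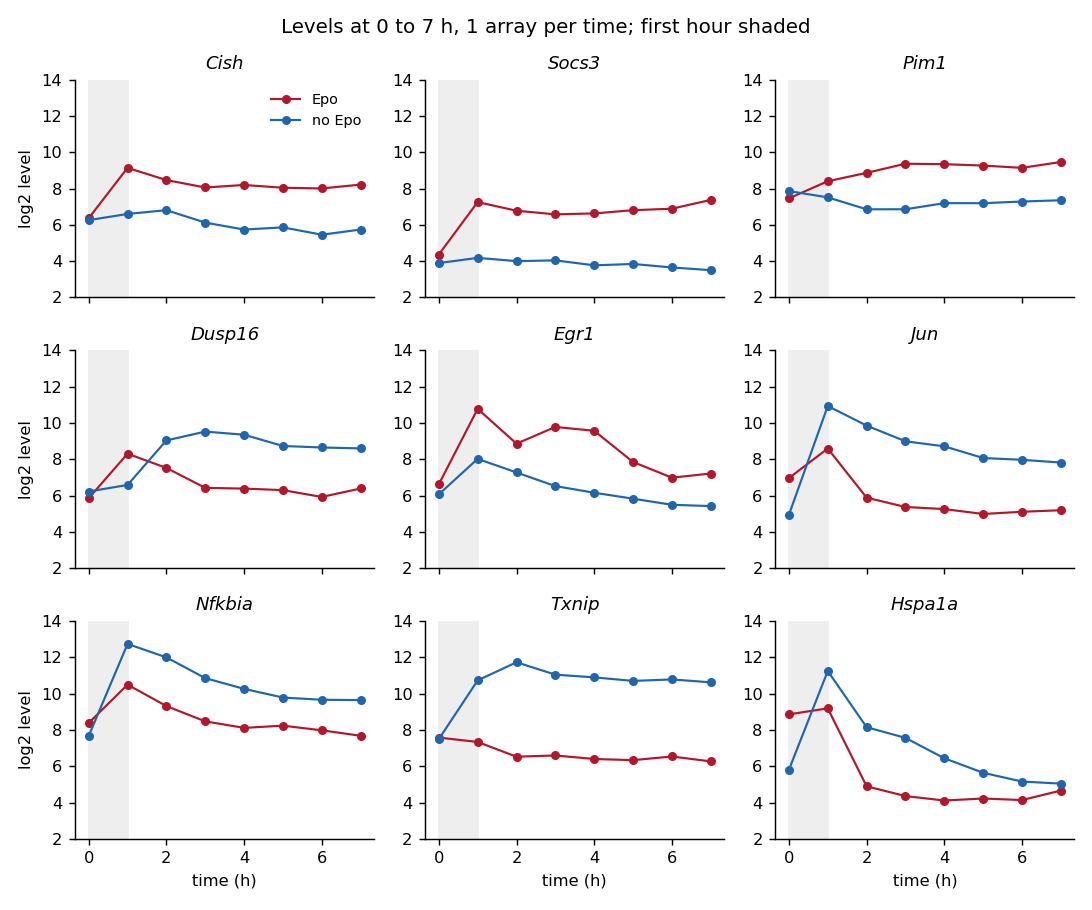
Log2 levels of 9 genes at 0 to 7 h (horizontal, hours) with Epo (red) and without (blue), 1 array per point and no error bars; the first hour is shaded. Cish and Socs3 lie higher with Epo from 1 h on, Dusp16 crosses over between 1 h and 2 h, Egr1 peaks at 1 h in both series at 10.78 and 8.02, and Jun, Nfkbia, Txnip and Hspa1a peak higher without Epo.

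The 28 genes higher in both series included the immediate early genes Junb, Nr4a1, Klf6, Atf3 and Btg2. Junb, a subunit of the AP-1 transcription factor, stood at 8.41 at 1 h and 6.20 at 0 h with Epo, and at 9.58 and 6.92 without. It rose 4.64-fold with Epo and 6.33-fold without (adjusted p = 5.1e-05 and 2e-06). Nr4a1, an orphan nuclear receptor, stood at 7.46 and 5.31 with Epo and at 8.07 and 5.13 without, and rose in both series (adjusted p = 0.0014 and 1.5e-05). For both genes each 1 h array lay above each 0 h array. Klf6, a zinc finger factor, rose by 2.64 with Epo and by 2.09 without (adjusted p = 3.3e-05 and 0.00033), Atf3, a stress-induced factor, by 2.23 and 2.41 (adjusted p = 0.0023 and 0.00083), and Btg2, which restrains proliferation, by 1.33 and 1.89 (adjusted p = 0.001 and 5.2e-06). The differences between the 2 changes of these 5 genes, from -0.80 to 0.55, did not pass (adjusted p = 1 for each); with standard errors of 0.26 to 0.50 this does not show that the changes were equal.

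The difference of changes passed for 3 of these 28 genes, Jun, Ier2 and Nfkbia, each with the larger change without Epo. Jun, another AP-1 subunit, stood at 8.59 at 1 h and 6.96 at 0 h with Epo, against 10.94 and 4.94 without. It rose 3.10-fold with Epo (adjusted p = 0.0046) and 64.1-fold without (adjusted p = 1.4e-10), and the changes differed by -4.37 ± 0.40 (adjusted p = 4.9e-06). With the mean of its probe sets the change with Epo was 1.29 and no longer passed. Its 0 h level was already 2.03 higher in the Epo series, and at 1 h it was 2.35 lower there, and the difference of changes adds both gaps. Ier2, an immediate early gene, was at 9.83 and 7.76 with Epo and at 11.64 and 7.58 without, with 0 h levels 0.18 apart, and its changes differed by -1.99 ± 0.29 (adjusted p = 0.0032). Of the 28 genes, 20 had the larger change without Epo and 8 with Epo, most of them with a difference that did not pass. The median change was 1.67 with Epo and 2.15 without.

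The inhibitors of NF-kB were among the genes with the largest changes. Nfkbia encodes IkBa, which holds NF-kB in the cytoplasm and is itself an NF-kB target. It stood at 10.50 at 1 h and 8.39 at 0 h with Epo, against 12.74 and 7.67 without, rose 4.33-fold with Epo and 33.6-fold without (adjusted p = 0.0031 and 1.8e-08), and the changes differed by -2.96 ± 0.49 (adjusted p = 0.011). Its 4 other probe sets changed by 0.96 to 3.02 with Epo and by 3.17 to 5.91 without, but the difference no longer passed with the mean of the probe sets (-2.86). Tnfaip3, whose protein A20 removes ubiquitin from NF-kB activators, stood at 6.33 and 3.77 with Epo and at 8.98 and 3.74 without, and rose 5.92-fold and 37.9-fold (adjusted p = 0.0024 and 1.5e-07). The Tnfaip3 changes differed by -2.68 ± 0.58 (adjusted p = 0.12), and with the mean of its probe sets the difference of -2.20 passed. The other Tnfaip3 probe set changed by 0.34 with Epo and by 2.07 without. Nfkbiz, an inducible regulator of the same family, changed by 1.84 and 2.18 (adjusted p = 0.023 and 0.0066), and its call with Epo ended with the mean of its probe sets.

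The Nfkbia and Tnfaip3 promoter windows are printed because NF-kB motifs were the commonest of the 5 motifs searched among the genes higher in both series. They come from the same RefSeq table and build, Nfkbia at chr12:55492598-55492897 and Tnfaip3 at chr10:19015361-19015660, both on the minus strand, and capitals mark matches to the NF-kB motif on either strand.
Nfkbia: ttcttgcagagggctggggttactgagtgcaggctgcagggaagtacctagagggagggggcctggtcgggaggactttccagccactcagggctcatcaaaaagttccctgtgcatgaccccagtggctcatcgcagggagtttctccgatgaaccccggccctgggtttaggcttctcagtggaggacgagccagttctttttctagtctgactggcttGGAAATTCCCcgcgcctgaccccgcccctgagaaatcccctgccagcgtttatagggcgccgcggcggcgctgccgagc
Tnfaip3: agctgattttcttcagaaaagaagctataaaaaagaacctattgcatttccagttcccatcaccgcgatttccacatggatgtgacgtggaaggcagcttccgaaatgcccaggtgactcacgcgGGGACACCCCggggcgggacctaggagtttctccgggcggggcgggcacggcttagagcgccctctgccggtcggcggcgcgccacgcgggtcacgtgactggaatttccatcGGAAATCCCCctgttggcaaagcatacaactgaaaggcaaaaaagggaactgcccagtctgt
The motif was present in 1 place in Nfkbia and in 2 in this window of Tnfaip3, and a second annotated start of Tnfaip3 had none. Of 22 genes higher in both series with a window, 7 (31.8%) held it, among them Fos, Nr4a1, Bbc3, Cxcl10 and Neurl3, against 6.1% of the 14368 tested genes with one. Among the 22 genes higher in the no-Epo series that have a window, 5 (22.7%) held it. The shares describe these windows only, and genes without a window were not searched.

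Egr1 and Relb went the other way, with larger first-hour changes in the Epo series. Egr1, the zinc finger factor induced through ERK, stood at 10.78 at 1 h and 6.62 at 0 h with Epo, against 8.02 and 6.07 without. It rose 17.9-fold with Epo (adjusted p = 0.00049), and its 3.88-fold change without Epo did not pass (adjusted p = 0.23). Relb, an NF-kB subunit, stood at 6.19 and 2.87 with Epo and at 4.19 and 2.99 without, and rose 9.99-fold with Epo (adjusted p = 0.0011). The changes differed by 2.21 ± 0.77 for Egr1 and by 2.12 ± 0.67 for Relb, and neither difference passed (adjusted p = 1 and 0.84). At 0 h the series differed by 0.55 for Egr1 and by -0.12 for Relb, and at 1 h by 2.76 and 2.00. By 2 h Relb was no longer higher with Epo, at 7.11 against 7.52 without. Egr1 then stood at 8.86 with Epo and 7.27 without.

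Further genes higher in both series had roles in stress responses. Chac1, an enzyme that degrades glutathione and is induced through ATF4, stood at 7.22 and 4.79 with Epo and at 8.58 and 4.38 without, and rose by 2.43 and 4.20 (adjusted p = 0.0045 and 6.4e-06). Phlda1 rose by 2.23 and 3.65 (adjusted p = 0.0087 and 3e-05). Cyp1a1, the detoxifying enzyme induced by the aryl hydrocarbon receptor, stood at 4.68 and 3.04 with Epo and at 5.25 and 2.36 without, and passed in neither series (adjusted p = 0.43 and 0.051). Fos, the AP-1 partner of JUN, was at 7.92 and 6.79 with Epo and at 8.36 and 4.90 without; it rose 11.1-fold without Epo (adjusted p = 0.00017), while its change of 1.13 with Epo did not pass (adjusted p = 0.44). Of the 28 genes, 23 passed for the change with Epo and 22 for the change without, and 16 of their 17 other probe sets changed in the same direction in both series. Just inside the 2-fold limit were Snhg12, with changes of 1.06 with Epo and 1.00 without, and Neurl3 (1.04 and 2.49), and just outside were Fosb (0.98 and 2.54) and Gadd45g (0.97 and 1.95).

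**Figure D3:**
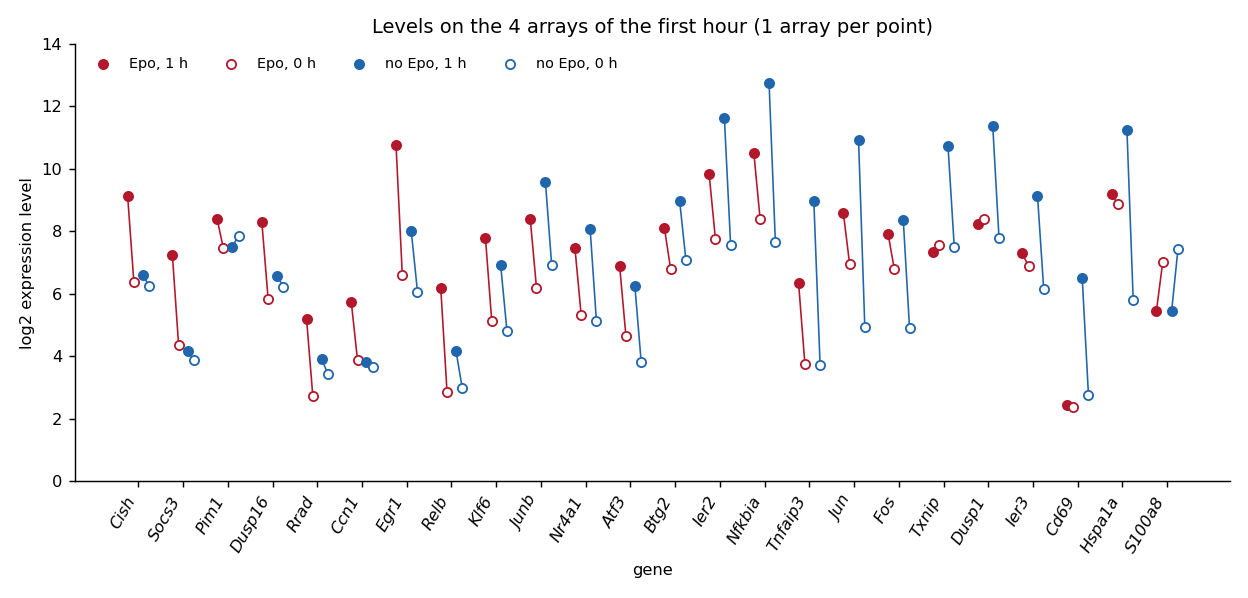
Log2 levels (vertical) of 24 genes (horizontal) on the 4 arrays, 1 array per point: filled circles are 1 h and open circles 0 h, red with Epo and blue without, and lines join the arrays of a series. From Cish to Ccn1 the filled red circle is the highest of the 4 points, and from Txnip to Hspa1a it lies below the filled blue one, by 1.85 for Ier3 to 4.09 for Cd69.

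The genes higher in both series stayed above their 0 h level in larger number without Epo. At 2 h, 13 of the 28 were still at least 2-fold above their 0 h level with Epo and 28 of 28 without, and at 7 h 3 with Epo and 22 without. Over all genes the share that far above 0 h at 7 h was 0.96% with Epo and 5.12% without. With Epo 22 of the 28 had their highest level of hours 0 to 7 at 1 h, and without Epo 8 did, against 9.1% and 15.1% of all genes. The 28 were chosen for a 1 h level above 0 h on these same arrays. Their highest level therefore could not fall at 0 h, and the shares over all genes are not a like reference for these counts. Btg2 stood at 7.40 at 2 h and 7.31 at 7 h with Epo, and at 10.06 and 9.58 without. The difference between the series in duration was not tested.

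The 26 genes higher in the series without Epo held heat shock, MAP kinase feedback and metabolic stress genes. Txnip, which limits glucose uptake and binds thioredoxin, stood at 7.34 at 1 h and 7.58 at 0 h with Epo, against 10.73 and 7.49 without. It rose 9.43-fold without Epo (adjusted p = 2.2e-08), and the changes differed by -3.48 ± 0.32 (adjusted p = 4.9e-06), with 0 h levels 0.09 apart and a second probe set at 0.07 with Epo and 3.38 without. Dusp1, a phosphatase that ends MAP kinase signals, stood at 8.23 and 8.39 with Epo and at 11.38 and 7.79 without, and rose 12.1-fold without Epo (adjusted p = 3.1e-10; difference -3.75 ± 0.27, adjusted p = 1.5e-07). Both stayed up without Epo, Txnip at 10.63 and Dusp1 at 9.95 at 7 h, against 6.27 and 8.64 with Epo. Cd69, a surface lectin of activated lymphocytes, stood at 2.43 and 2.38 with Epo and at 6.52 and 2.76 without (difference -3.71 ± 0.27, adjusted p = 1.5e-07). Its high level was seen on the 1 h array alone: at 2 to 7 h without Epo Cd69 lay between 2.05 and 2.34, and of 14 lymphoid markers, a list without Cd69, 2 exceeded the array median on each of the 4 arrays.

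Hspa1a, the inducible chaperone HSP70, stood at 9.19 at 1 h and 8.86 at 0 h with Epo, against 11.25 and 5.81 without. It rose 43.5-fold without Epo (adjusted p = 1.1e-08), and the changes differed by -5.12 ± 0.51 (adjusted p = 1.3e-05), the furthest apart of the 18 genes. Hspa1a was already 3.06 higher with Epo at 0 h, and at 2 h it stood at 4.90 with Epo and at 8.15 without. Its near-identical copy Hspa1b, whose signal may not be separable, was at 10.55 and 9.88 with Epo and at 12.20 and 7.85 without (difference -3.67 ± 0.78, adjusted p = 0.12). Of 26 heat shock genes 0 passed as higher with Epo and 4 without (Hspa1a, Hspa1b, Dnajb4 and Dnajb9), against 0.297% and 0.319% of all genes, and the list median was 0.10 with Epo and 0.11 without. The Dnajb4 call ended with the mean of its probe sets (0.72), and Dnajb9 is also listed among the ER unfolded protein response genes. The Hspa1a window, chr17:34972107-34972406 on the minus strand in the same table, is shown with its heat shock element GAANNTTC, the binding sequence of the heat shock factor HSF1, in capitals.
Hspa1a: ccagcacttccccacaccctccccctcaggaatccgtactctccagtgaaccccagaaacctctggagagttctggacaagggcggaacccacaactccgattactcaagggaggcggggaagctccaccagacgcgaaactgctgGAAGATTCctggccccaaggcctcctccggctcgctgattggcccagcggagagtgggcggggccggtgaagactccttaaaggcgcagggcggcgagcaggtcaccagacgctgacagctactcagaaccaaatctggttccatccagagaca
It held 1 such element; 3 of the 22 genes of this group with a window did (13.6%), against 7.6% of all genes with one, 15.4% of those higher in the Epo series and 12.2% of those lower there.

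Other genes in this group act in translation control, cell death and signalling. Ppp1r15a, which directs a phosphatase to the translation factor eIF2a, stood at 7.93 and 7.71 with Epo and at 9.52 and 7.42 without (difference -1.88 ± 0.25, adjusted p = 0.00078). Ier3, an immediate early gene, stood at 7.29 and 6.89 with Epo and at 9.15 and 6.15 without (difference -2.59 ± 0.45, adjusted p = 0.015, not passed when all genes' probe sets were averaged). Rasgef1b, an exchange factor gene, and Gem, a small GTPase gene, differed by -2.17 and -2.38 (adjusted p = 0.012 and 0.011). Nfkbid, an NF-kB regulator, differed by -1.99 and Ier5 by -1.46 (adjusted p = 0.011 and 0.015); Gem, Nfkbid and Ier5 were named after their values were seen, because their difference passed. The stress factor gene Ddit3 rose by 2.32 and Pmaip1, which encodes the death protein NOXA, by 2.76 without Epo (adjusted p = 1.5e-05 and 0.0016), and their differences did not pass (adjusted p = 0.15 and 0.48). Of the 26 genes 0 passed for the change with Epo, 21 for the change without and 10 for the difference, and 20 were at least 2-fold lower with Epo at 1 h itself.

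The genes lower in the Epo series started from a higher 0 h level there. Of the 46 genes lower in the Epo series, 40 were at least 2-fold higher in that series than in the other at 0 h, and at 1 h 40 lay within 2-fold of it. Over all 18193 genes, 436 were that far higher and 115 that far lower with Epo at 0 h. The median difference, Epo minus no Epo, was 0.37 at 1 h and 1.61 at 0 h. Slc16a7, a lactate and pyruvate transporter, stood at 3.24 and 5.17 with Epo and at 2.86 and 2.78 without, and its changes differed by -2.01 ± 0.35 (adjusted p = 0.015). Itih5 differed by -1.55 (adjusted p = 0.042), which did not pass under quantile normalization (-1.41) or with the mean of its probe sets (-0.78). Serpina7, a thyroxine-binding protein named after its values were seen, differed by -1.91 (adjusted p = 0.011). Liver genes in this group include Afm, Cyp2d10, Serpind1, Ugt2b5 and Serpina7, and their share of the 46 was not counted. Foxa3, a transcription factor of hepatocytes, stood at 4.90 and 6.65 with Epo and at 4.19 and 4.52 without. Of the 46, 37 passed for the change with Epo, 0 for the change without and 3 for the difference. With Epo 45 had their highest level of hours 0 to 7 at 0 h, as did 19.2% of all genes. The group was chosen for a 0 h level with Epo at least 2-fold above that at 1 h. The calls, the high 0 h level with Epo and the 0 h peak follow largely from that choice.

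**Figure D4:**
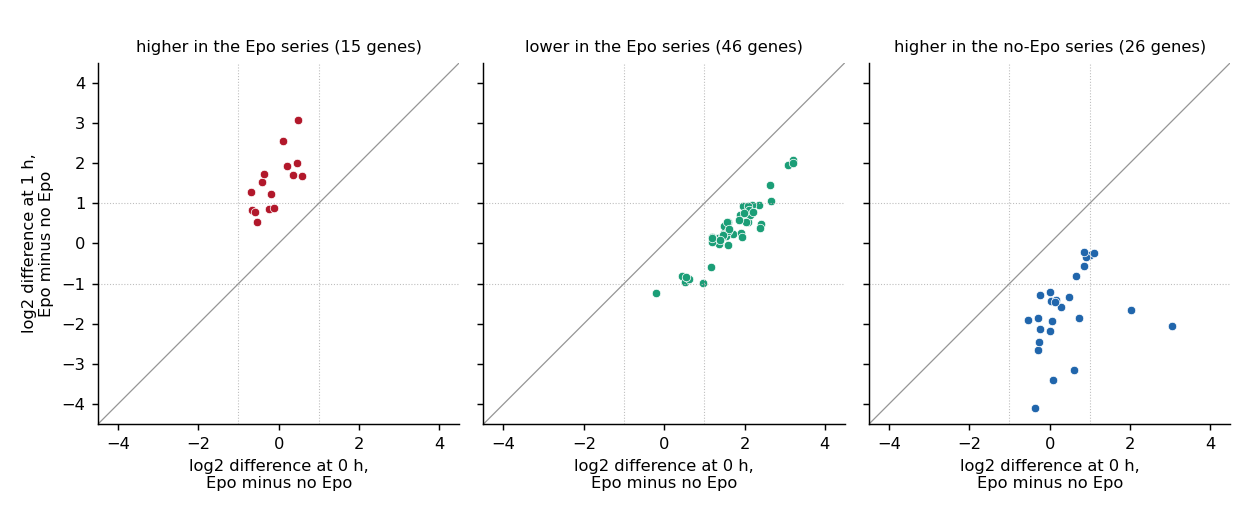
Each point is a gene, placed by the log2 difference between the series (Epo minus no Epo) at 0 h (horizontal) and at 1 h (vertical), 1 array each; dotted lines mark 2-fold and the solid line no shift. The 15 genes higher in the Epo series lie within 2-fold at 0 h and 10 are above 1 at 1 h, the 46 lower genes lie mostly to the right with 40 above 1 at 0 h, and 20 of the 26 genes higher without Epo lie below -1 at 1 h.

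Hepatocyte markers were present on all 4 arrays and were lower at 1 h in both series. Of 14 markers 13 were below their 0 h level in both series, against 5467 of all 18193 genes. The median changes were -0.79 with Epo and -0.50 without. With Epo 3 markers (Fga, Serpina1b and Apob) passed as lower and without Epo 0, against 0.676% and 0.11% of all genes. The calls of Serpina1b and Apob each ended under 4 of the 5 scaling and probe set alternatives, with changes of -0.92 and -0.89 under quantile normalization. Their summed level, on the linear scale, was 24148 at 1 h and 36731 at 0 h with Epo, against 12487 and 17164 without. Fewer cells of a type and less RNA per cell cannot be told apart in such samples, and the part of hepatocyte RNA in the 46 genes was not tested. Granulocyte markers followed the same direction at lower levels, with summed levels of 667 and 1007 with Epo and 1644 and 2542 without. S100a8, a neutrophil calcium-binding protein, stood at 5.47 and 7.02 with Epo and at 5.46 and 7.43 without, and fell in both series (adjusted p = 0.018 and 0.0022).

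S100a8 had the largest mean change of the 20 genes at least 2-fold lower in both series. Maob, a monoamine oxidase, stood at 5.01 and 6.49 with Epo and at 3.66 and 5.16 without, and fell in both series (adjusted p = 0.0038 for each). Aass, an enzyme of lysine breakdown, stood at 4.89 and 6.05 with Epo and at 3.38 and 5.40 without (adjusted p = 0.027 and 0.0001), and its call with Epo ended under quantile normalization. Fli1, a transcription factor of megakaryocytes and endothelium, fell by 1.43 and 1.13 (adjusted p = 0.0032 and 0.032), calls that ended with the mean of its probe sets. Of the 20, 11 passed with Epo and 6 without, but 7 of their 16 other probe sets (43.8%) were lower in both series. Just inside the limit were Dido1 (changes of -1.001 with Epo and -1.28 without) and Peg3 (-1.27 and -1.01), and just outside Dsp (-1.13 and -0.98) and Ghr (-1.95 and -0.98).

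The 8 genes lower in the series without Epo included a ubiquitin ligase and a histone gene. Rnf145, a ubiquitin ligase gene, stood at 8.78 and 8.81 with Epo and at 8.18 and 9.78 without, and fell without Epo by 1.60 (adjusted p = 0.0026). H3f3b, which encodes the histone variant H3.3, stood at 6.12 and 5.89 with Epo and at 4.75 and 6.40 without, and fell without Epo by 1.65 (adjusted p = 0.0092). Of the 8 genes 6 passed for the change without Epo and none for the difference.

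Among 34 lists of pathway genes, immediate early genes moved most. Of 38, 12 rose with Epo and 17 without and none fell, where 0.297% of all genes rose with Epo and 0.319% without. Above 0 h in both series were 28 of the 38, against 5165 of all 18193 genes. The medians were 0.48 with Epo and 0.85 without, against -0.01 and 0.00 over all genes. The difference of changes passed for 5 of the 38 (Jun, Ier2, Ier3, Ier5 and Gem), each with the larger change without Epo. Over all genes it passed towards lower levels with Epo for 0.0879% and towards higher levels for 0.011%. Of 28 NF-kB targets and feedback genes 7 rose with Epo and 4 without, with medians of 0.47 and 0.59. Of 15 CREB targets 1 rose with Epo and 4 without, with medians of 0.01 and 0.59, and the median without Epo was 0.27 with the mean of probe sets. Of 34 ATF4 and amino acid response genes 5 rose in each series; Trib3, a pseudokinase gene, rose with Epo by 1.59 (adjusted p = 0.0032) and Ddit3 without. Of 16 genes listed as ERK feedback Dusp8 and Dusp16 rose with Epo and Dusp1, Dusp5 and Dusp8 without. The list is not split by the MAP kinase on which each phosphatase acts. Without passing, Dusp6 changed by -0.92 with Epo and 0.71 without, and Spry2 by -0.45 and 0.29. Of the 16, 7 were above 0 h in both series and 2 below it in both, against 5165 and 5467 of all 18193 genes.

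Genes of the Epo receptor pathway had medians of -0.08 with Epo and -0.10 without. Of 18 such genes 0 passed in either series, a count that the shares over all genes (0.297% higher and 0.676% lower with Epo, 0.319% and 0.11% without) would also give in a list of this size. Epor, the receptor, stood at 9.79 and 9.85 with Epo and at 10.21 and 10.25 without, and Jak2 at 7.46 and 7.52 with Epo and at 8.02 and 8.09 without. Of 22 negative regulators of JAK2 and STAT5, Cish and Socs3 rose with Epo and none rose without; Socs2 of the same family stood at 6.57 and 6.81 with Epo and at 6.56 and 6.89 without. Of 25 STAT5 targets 4 rose and 1 fell with Epo, and 1 rose without. Myc, which drives growth, stood at 9.43 and 9.34 with Epo and at 9.22 and 10.03 without (change without Epo -0.81, adjusted p = 0.2). In 14 lists with 290 genes in all no gene passed in either series or for the difference. These lists were picked for having no such call. They included 14 heme synthesis genes, 6 globin genes, 21 erythroid transcription factors, 33 ribosomal protein genes and 26 sterol synthesis genes. The sterol medians were -0.31 with Epo and -0.04 without. The shared change of the 4 arrays passed as lower for 4 sterol genes, 3 erythroid transcription factors and 1 globin gene. It did so for 3.33% of all genes.

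**Figure D5:**
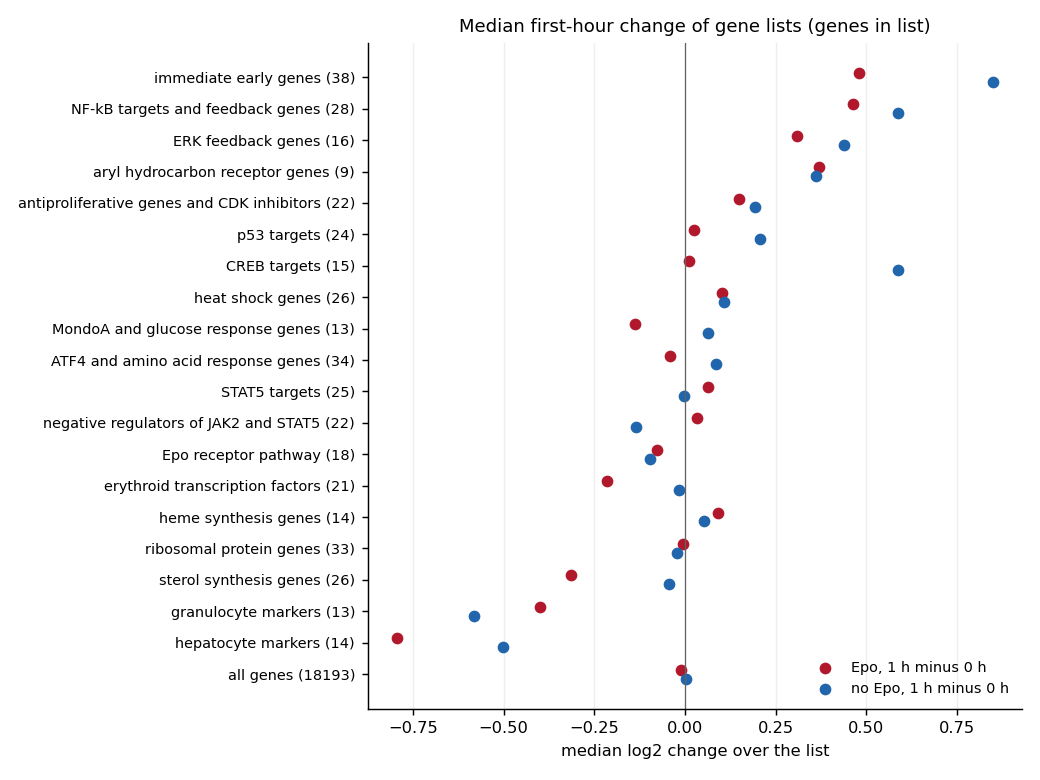
Median log2 change from 0 h to 1 h (horizontal) over the genes of 19 lists and over all genes, with Epo (red, upper point) and without Epo (blue, lower point); numbers in brackets are genes per list, and no error is drawn. Immediate early genes lie highest at 0.48 and 0.85, hepatocyte markers lowest with Epo at -0.79, and granulocyte markers lowest without Epo at -0.58.

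The erythroid markers of the cells were high on each array: 12 of 13 CFU-E and erythroid markers were above the array median on all 4 arrays. So were 12 to 13 of 14 hepatocyte markers. By definition about 50% of all genes lie above an array's median. Granulocyte markers (6 to 8 of 13 above it) and megakaryocyte markers (5 to 6 of 11) were near that share. Of 16 macrophage markers 1 to 2 lay above the median, and of 10 mast cell markers 1 to 2. Spiked-in lys and phe controls changed by -0.36 and -0.40 with Epo and by 0.01 and -0.01 without, and bioB by -0.22 and 0.29. Their part in the changes of single genes was not tested. The log2 signal of the 3' over the 5' probe set, a measure of RNA quality, was -0.17 and -0.12 for Gapdh with Epo and -0.14 and -0.09 without, at 1 h and 0 h. For beta-actin it was 0.63 and 0.69 with Epo and 0.39 and 0.58 without.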

How the data were processed

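RNA was measured on mouse Affymetrix arrays, 1 array per sample, 20 in all, of which 4 are compared here. The values the authors deposited span a range that fits log2 levels, and they were used as deposited; their normalization was not given in the sources used here. Of 45101 probe sets, 34958 named 1 gene in the platform annotation, 932 several and 9211 none here, and for each of 18193 genes the brightest probe set, by mean over the 20 arrays, was kept, with no filter on dim genes. Depth has no counterpart on arrays, and their number limits the precision.

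Changes were tested with limma 3.58.1 under R 4.3.3, using moderated variances with a trend, and p-values were adjusted over all genes by the Benjamini-Hochberg method (called under 0.05). The change in each series and their difference came from 16 arrays, hours 0 to 7 of both series, with 0 h and 1 h as means of their own and a line in time over hours 2 to 7 (8 residual degrees of freedom). The shared change came from the 4 arrays with series as a block (1 residual degree of freedom). Standard errors are the moderated ones of these fits. Size groups used a log2 change of at least 1, without a test. The fits were tested on simulated data.

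Named genes followed a rule: the largest changes or differences in each size group among genes above the median level on at least 1 array, leaving out clone names, up to 4 members per list by mean change and up to 4 by difference, and a fixed set that includes Cish, Socs3, Egr1 and Jun. The rule, the members and the 34 pathway and 8 marker lists were chosen with earlier results of these data known; 82 of 927 list entries matched no gene. Summaries were made in Python 3.11.15 with numpy 2.4.6 and pandas 2.3.3, and figures with matplotlib 3.10.9. Promoter windows are RefSeq's.

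Alternatives were quantile normalization, median centring, the brighter genes only, the mean of a gene's probe sets, only those probe sets not marked as cross-hybridising, variance models with no trend or robust, other fold thresholds, no series block, a quadratic in time, other hours behind the spread, the 1 h arrays compared without their 0 h arrays, and, chosen after seeing the data, each array of hours 2 to 7 left out of the spread in turn.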

Additional observations from a re-analysis of the deposited data

Results flagged for a closer look

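For 18 genes the change in the first hour differed between the series by a test of the difference itself. The differences of changes, Epo minus no Epo on the log2 scale, were 2.61 for Socs3 and 2.43 for Cish, the 2 genes with the higher change with Epo. They were -5.12 for Hspa1a, -4.37 for Jun, -3.75 for Dusp1, -3.71 for Cd69 and -3.48 for Txnip. They were -2.96 for Nfkbia, -2.59 for Ier3, -2.38 for Gem, -2.17 for Rasgef1b, -2.01 for Slc16a7, -1.99 for Ier2 and -1.99 for Nfkbid. They were -1.91 for Serpina7, -1.88 for Ppp1r15a, -1.55 for Itih5 and -1.46 for Ier5.

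In 5 of the 18 genes the 0 h arrays of the 2 series were at least 1 apart in the direction opposite to the difference of changes: Hspa1a (3.06), Serpina7 (2.41), Slc16a7 (2.39), Itih5 (2.09) and Jun (2.03). In the other 13 the 0 h arrays lay within 1 of each other, and the difference is also seen at 1 h itself, from 4.09 lower with Epo for Cd69 to 3.08 higher with Epo for Socs3. The Cd69 level without Epo was high on the 1 h array alone.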

How the results depend on the processing

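The counts of genes higher at 1 h with Epo (54) and without Epo (58) stayed within 1.5 times these counts in every alternative run. The shared counts of 164 higher and 606 lower were 70 and 247 with median centring, 30 and 69 with the mean of all probe sets, 30 and 64 without a trend, 95 and 221 with the spread of hours 2 to 7, and 0 and 0 without the series block. Genes lower with Epo (123) and without (20) were 44 and 13 among the brighter 60% of genes, where fewer were tested, and 219 and 38 with a quadratic in time. The 2 genes with a higher change with Epo became 7 with the quadratic and 6 without the Epo 2 h array, with a range of 2 to 6 as each array of hours 2 to 7 was left out of the spread; the 16 with a lower change were 10 among the brighter genes, and 15 to 21 as arrays were left out. Comparing the 1 h arrays without subtracting 0 h called 757 higher and 530 lower with Epo.

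Size groups at 1.5-fold and 3-fold held 58 and 15 genes higher in both series, 180 and 0 lower in both, 127 and 6 higher in the Epo series, 273 and 6 lower in the Epo series, 94 and 15 higher without Epo, and 106 and 1 lower without Epo, and at 1.5-fold 5 genes were opposite. The 20 genes lower in both series were 13 under quantile normalization, 12 among the brighter genes and 11 with the mean of probe sets. The 8 lower without Epo were 5 under quantile normalization and 5 with the mean of probe sets, and the 46 lower with Epo were 16 among the brighter genes. Causes not given by construction were not tested. Of 3807 values for named genes under 5 scaling and probe set alternatives, 3755 kept their direction and their side of the threshold, 44 lost a call, 8 gained one and none reversed. The shared counts come from the paired analysis, with each 1 h array set against the 0 h array of its series, and the value of 0 is the fit without that pairing. Low signal limits the dim genes, which have only the array's own precision.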

Other observations

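Cxcl1, a chemokine gene and NF-kB target, gave a different picture by probe set. Its brightest probe set stood at 6.60 and 5.68 with Epo and at 5.47 and 5.37 without, at 1 h and 0 h, and passed in neither series. Its other 2 probe sets changed by 4.11 and 2.47 with Epo and by 0.43 and -0.17 without. With the 4.11 probe set, the brightest not marked as cross-hybridising, the difference of 3.68 passed. The gene was named because of these values.

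Klf10, a growth-restraining factor also known as a target of the glucose sensor MondoA, stood at 8.09 and 7.16 with Epo and at 8.99 and 7.11 without, and rose without Epo (adjusted p = 0.0066, limma). It was at 10.94 at 2 h and 10.66 at 7 h without Epo, against 7.58 and 7.24 with Epo. Tsc22d3, a FOXO and glucocorticoid target, stood at 6.95 at 1 h and 8.59 at 2 h without Epo, against 5.47 and 4.98 with Epo.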
